A study of Mus musculus with 41 samples.

Results

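Interleukin-33 (IL-33) was compared with phosphate-buffered saline (PBS) in endometriosis lesions of mice whose group 2 innate lymphoid cells (ILC2s) had been targeted genetically, which addresses what IL-33 does in a lesion through cells other than ILC2s. The 8 libraries, of 41 in the series, were chosen by their labels and not by any measured value: 4 IL-33-treated and 4 PBS-treated lesions of the genotype Nmur1iCre-eGFP Id2fl/fl. In this genotype Cre recombinase, with eGFP, is driven by Nmur1, a neuropeptide receptor gene of ILC2s, and Id2, a transcriptional regulator that innate lymphoid cells need, is flanked by loxP sites. Both treatment groups carry both alleles, so the comparison holds the genotype constant, and only cells that express Nmur1 are due to lose Id2 by this design. Below, "without ILC2s" and "deficient" name this genotype. How far ILC2s were lost from these lesions, and whether equally in both groups, was not measured. A uterine punch of 4 mm had been fixed in the peritoneal cavity of mice 12 to 16 weeks old, and from day 7 the mice received 3 intraperitoneal injections over 6 days, each of 1 µg IL-33 or of PBS alone. The labels give 1 genotype for each of these lesions, and the recipient mouse was taken to share it. Lesions were sequenced whole, as bulk RNA. In 2 other IL-33-treated groups (n = 4 each) the same injections were given: Nmur1iCre-eGFP Id2fl/fl mice that also received PBS, for a purpose the labels do not give, and Nmur1iCre-eGFP mice with unfloxed Id2, here called Cre controls.

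IL-33 is a cytokine of the IL-1 family that is released from damaged barrier and stromal cells. It binds ST2, encoded by Il1rl1, paired with the accessory protein encoded by Il1rap, and signals through MyD88 to NF-kB. ILC2s respond by secreting IL-5 and IL-13. IL-5 sustains eosinophils, and IL-13 acts through STAT6 on macrophages, epithelium and stroma, where it induces resistin-like and chitinase-like proteins, arginase 1 and eotaxins. ST2 is also carried by mast cells, basophils, regulatory T cells, some macrophages and endothelium, which are the textbook candidates for a response that bypasses ILC2s.

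IL-33 libraries held 43.0, 30.3, 39.8 and 41.4 mega-counts in replicates 1 to 4, and PBS libraries held 70.5, 41.1, 47.4 and 55.9 mega-counts. No batch is labelled, but the library names of the IL-33 and PBS groups form separate runs of numbers, so the treatment and the run cannot be told apart. Since the labels leave unsaid whether each replicate was its own animal, the p-values refer to the spread among the libraries and part of that may be technical. Several libraries stood apart in tissue content, and each is named beside the results it touches. IL-33 replicate 2 had 3.27% of its counts in 15 liver genes, against at most 0.0492% in the other 3 IL-33 lesions and 0.0474% in the PBS lesions. IL-33 replicate 3 was rich in fat and skeletal muscle transcripts, IL-33 replicate 4 in epithelial transcripts, and PBS replicate 3 in macrophage transcripts with little muscle or epithelium.

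Almost no gene separated IL-33 from PBS lesions once the number of tests was allowed for. Of 21249 genes, 2 (0.00941%) passed an adjusted p of 0.05 with edgeR's quasi-likelihood F-test after Benjamini-Hochberg adjustment, and both were higher with IL-33: Col6a5, a chain of the beaded-filament collagen VI, and Rnase2a, an eosinophil-associated ribonuclease. No gene passed in the lower direction with edgeR, where 307 genes (1.44%) had an unadjusted p under 0.05, and DESeq2 called 1 lower gene. Before adjustment, 1129 genes (5.31%) were on the higher side at p under 0.05, which makes 1436 (6.76%) in both directions. All 4 IL-33 lesions lay above all 4 PBS lesions for 433 genes (2.04%) and below them for 395 genes (1.86%). The median log2 fold change over all genes was 0.02, and 13714 genes (64.5%) had a 95% interval that stayed within a log2 change of 1 in either direction. For the other genes the interval reached past a log2 change of 1 in at least 1 direction, so a change of that size was not excluded by these 8 lesions.

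**Figure D1:**
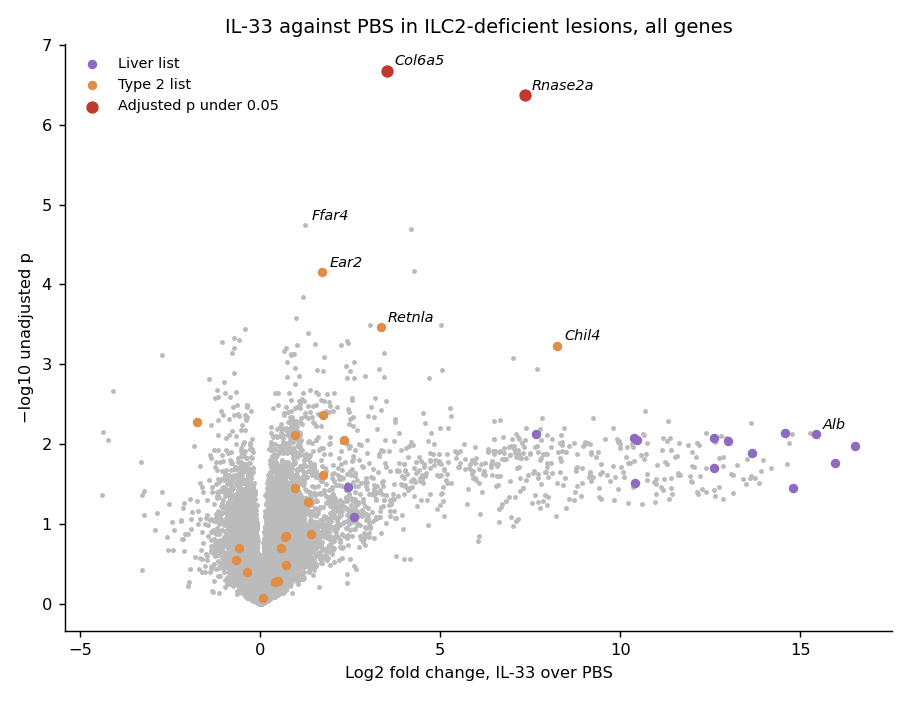
Each point is 1 of 21249 genes; the horizontal axis is the log2 fold change of IL-33 over PBS lesions without ILC2s (n = 4 each) and the vertical axis the unadjusted p on a −log10 scale. Col6a5 and Rnase2a stand above the rest, type 2 genes such as Ear2 and Retnla lie on the right without passing, and the liver genes reach the far right through IL-33 replicate 2.

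Col6a5 encodes the alpha-5 chain of collagen VI, a matrix protein, and lies at chr9:105856078-105960643 on the minus strand (GRCm38, GENCODE M21). It stood at 97.5, 293, 187 and 104.2 CPM (counts scaled to the effective library size) in IL-33 lesions, against 21.1, 13.8, 11.5 and 13.4 CPM in PBS lesions. The groups did not overlap, and the lowest IL-33 lesion was several times the highest PBS lesion. The mean was 170 ± 91.3 CPM with IL-33 and 14.9 ± 4.20 CPM with PBS (SD, n = 4 each), a log2 fold change of 3.51 ± 0.53 (SE), or 11.4-fold, with an adjusted p of 0.00448 in edgeR's quasi-likelihood test. The common chains of the same collagen did not pass: Col6a1, Col6a2 and Col6a3 had log2 fold changes of 0.24, 0.28 and 0.15, with adjusted p of 0.937, 0.933 and 0.978 in the same test. Of 16 measured collagen genes Col6a5 was the one that passed, and the median of the 16 was 0.06.

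Rnase2a, a member of the eosinophil-associated ribonuclease family, lies at chr14:51255262-51256112 on the minus strand. Which cells of the lesions made its transcript was not tested. It was low everywhere, at 1.13, 4.78, 2.08 and 2.39 CPM in IL-33 lesions, against 0, 0, 0.0577 and 0 CPM in PBS lesions. Every IL-33 lesion held the transcript, and in the PBS group 1 lesion gave all the counts. Summed over the group, IL-33 lesions had 395 counts and PBS lesions 3, a ratio per effective library size of 192 with an exact 95% Poisson interval of 65.2 to 935 that covers counting error only. The fitted log2 fold change was 7.35 ± 1.16 (SE), with an adjusted p of 0.00452 in edgeR's quasi-likelihood test. In bulk tissue, more cells that make a transcript and more transcript per cell cannot be told apart. Reads may also be shared with relatives in the same ribonuclease family, which was not tested, so the level of Rnase2a is uncertain.

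Both calls depended on the libraries in the fit. In a fit of the 8 libraries alone the log2 fold changes were 3.51 for Col6a5 and 7.39 for Rnase2a, the adjusted p was 0.396 for each, and no gene passed. No gene passed without PBS replicate 2 either, where both had an adjusted p of 0.0536, nor without PBS replicate 4, where it was 0.0656 for Col6a5 and 0.0666 for Rnase2a. Without PBS replicate 1, Rnase2a had an adjusted p of 0.0810 and Col6a5 passed alone, whereas without PBS replicate 3 both passed (adjusted p = 0.0377 for each). Both also passed without any single IL-33 lesion. Neither passed when all libraries of the series with over 1% liver transcripts were left out (0.0703 for Col6a5 and 0.0739 for Rnase2a), or when IL-33 replicates 2 and 4 and PBS replicate 3 were left out together (0.234 for both), an alternative chosen after seeing the data, and no gene passed with a skeletal muscle covariate in the fit of the 8 libraries. Across the 19 alternatives the log2 fold change stayed between 3.10 and 3.90 for Col6a5 and between 6.87 and 9.80 for Rnase2a.

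The second set of IL-33-treated lesions without ILC2s, with added PBS, was set against the same 4 PBS lesions, so the 2 comparisons share their controls and the second is not independent of the first. In that comparison 5 genes (0.0235%) passed, all higher, and 1709 (8.04%) had an unadjusted p under 0.05. Col6a5 stood at 239, 271, 486 and 178 CPM in the lesions with IL-33 and added PBS, a log2 fold change of 4.30 ± 0.55 (SE) with an adjusted p of 0.00013 in edgeR's quasi-likelihood test. Rnase2a stood at 5.76, 4.10, 18.9 and 2.25 CPM there, with the same adjusted p. All 8 IL-33-treated lesions without ILC2s therefore lay above all 4 PBS lesions for both genes. The other 3 genes were Retnla, Ear2 and the long non-coding RNA Gm49087.

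Ear2, a ribonuclease of the same family as Rnase2a that macrophages and eosinophils make, was at 3.83, 5.42, 7.29 and 1.98 CPM in IL-33 lesions, against 1.30, 1.78, 1.66 and 0.861 CPM in PBS lesions. The groups did not overlap, although IL-33 replicate 4 stood close to the highest PBS lesion. The log2 fold change of 1.73 ± 0.38 (SE) had an adjusted p of 0.248 in edgeR's quasi-likelihood test. With added PBS it was at 8.64, 12.1, 14.8 and 4.42 CPM, and the log2 fold change over PBS of 2.84 ± 0.39 passed, with an adjusted p of 0.000216 in the same test. The annotation places Gm49101 over Ear2, and without a stated strand setting the reads of the 2 cannot be separated.

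The 250 bases upstream of the annotated start (RefSeq, GRCm38.p6, 5′ to 3′ on the gene's strand) are shown for Rnase2a, at chr14:51256113-51256362 on the minus strand, and Ear2, at chr14:44102404-44102653 on the plus strand, because both genes, of 1 ribonuclease family, passed with IL-33 and added PBS over PBS. Capitals mark runs of at least 12 bases that both share in their alignment.
Rnase2a: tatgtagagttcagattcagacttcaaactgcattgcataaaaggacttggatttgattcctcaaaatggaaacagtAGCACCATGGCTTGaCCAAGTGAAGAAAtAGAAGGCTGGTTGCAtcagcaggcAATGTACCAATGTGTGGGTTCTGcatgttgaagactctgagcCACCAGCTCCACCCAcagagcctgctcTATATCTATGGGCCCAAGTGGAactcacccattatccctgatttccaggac
Ear2: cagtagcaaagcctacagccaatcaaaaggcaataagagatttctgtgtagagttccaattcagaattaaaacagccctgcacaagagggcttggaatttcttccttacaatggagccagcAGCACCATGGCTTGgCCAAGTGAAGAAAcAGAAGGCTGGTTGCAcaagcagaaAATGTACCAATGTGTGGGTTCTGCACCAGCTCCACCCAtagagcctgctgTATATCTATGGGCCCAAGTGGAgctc

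The windows were identical at 178 of 206 aligned positions (86.4%), with 6 shared runs and a longest run of 23 bases. This describes the windows and says nothing of how the genes are controlled.

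Retnla encodes RELM-alpha, a secreted protein of macrophages stimulated through STAT6. Its levels were 54.4, 58.0, 108 and 19.2 CPM in IL-33 lesions, against 4.71, 3.39, 1.83 and 13.6 CPM in PBS lesions. The highest PBS lesion, replicate 4, came close to the lowest IL-33 lesion, also numbered replicate 4, but the groups stayed apart. The log2 fold change was 3.34 ± 0.83 (SE) with an adjusted p of 0.528 in edgeR's quasi-likelihood test. With added PBS the levels were 208, 146, 232 and 67.3 CPM, and the log2 fold change over PBS of 4.79 ± 0.89 passed, with an adjusted p of 0.0287. Gm49087, at chr14:43979713-43987466, had 70 counts in the IL-33 group and 174 with added PBS, against 5 in the PBS group. Its log2 fold change was 4.20 ± 0.84 for IL-33 over PBS (adjusted p = 0.108) and 5.53 ± 0.84 with added PBS (adjusted p = 0.00118), both from edgeR's test.

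The lesions without ILC2s stayed far below IL-33-treated Cre controls for these genes. Col6a5 averaged 170 ± 91.3 CPM in deficient lesions and 1927 ± 221 CPM in Cre controls with IL-33 (SD, n = 4 each), a log2 fold change of -3.50 ± 0.53 (SE) with an adjusted p of 0.000202 in edgeR's quasi-likelihood test. Rnase2a averaged 2.59 ± 1.55 CPM in deficient lesions and 67.9 ± 21.7 CPM in Cre controls, with a log2 fold change of -4.71 and an adjusted p of 0.00124 in the same test. Ear2 and Retnla were likewise lower in deficient lesions, by log2 fold changes of -3.15 and -3.64 with adjusted p of 1.04e-05 and 0.0143. In the same comparison 813 genes (3.83%) passed, 346 higher (1.63%) and 467 lower (2.2%), and 202 to 760 passed when single lesions were left out. No PBS-treated Cre controls were used here, so the effect of IL-33 in ILC2-competent lesions was not measured, and whether it differs from that in deficient lesions was not tested.

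**Figure D2:**
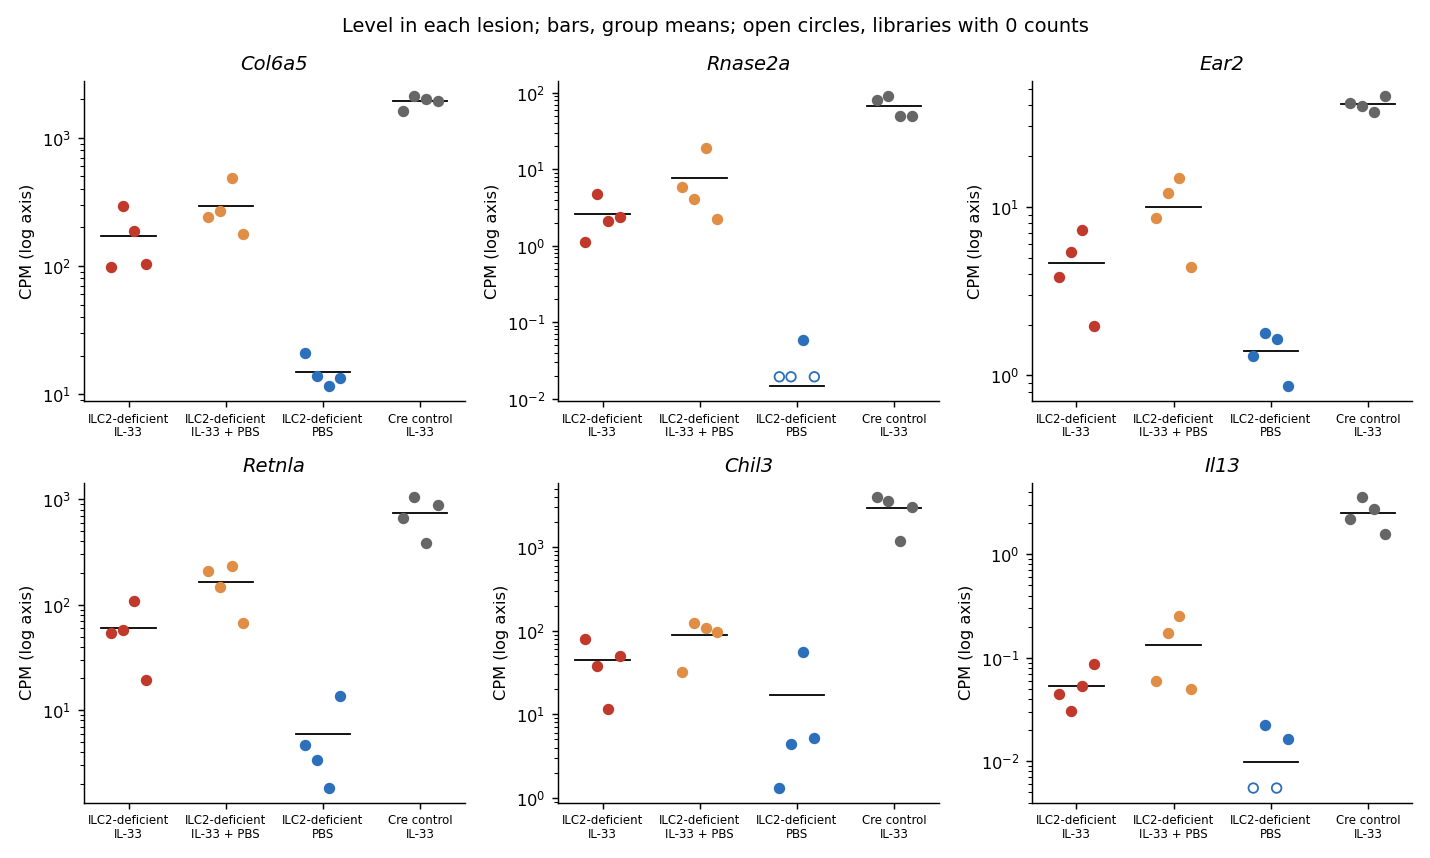
CPM on a log axis for 6 genes in each lesion of 4 groups (n = 4 each), with bars at the group means and open circles for libraries with 0 counts, which have no place on a log axis and are drawn below the lowest value. IL-33 lesions lie above PBS lesions for every gene but Chil3, where PBS replicate 3 reaches 56.3 CPM, and Cre controls with IL-33 lie highest throughout.

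Genes of the type 2 response leaned to the higher side without ILC2s. Of 21 measured members of a list of type 2 cytokines and effectors, none passed the adjusted threshold in IL-33 against PBS. At an unadjusted p under 0.05, 8 were higher (5.31% of all genes were) and 1 was lower (1.44%), and 6 lay above PBS in every IL-33 lesion (2.04% of all genes did). The list's median log2 fold change was 0.71, against 0.02 over all genes. Its summed level was 785, 673, 742 and 637 CPM in IL-33 lesions, against 307, 282, 766 and 408 CPM in PBS lesions, and 6658, 7080, 3196 and 5529 CPM in Cre controls with IL-33. PBS replicate 3, the macrophage-rich lesion, was within the range of the IL-33 lesions and the other 3 PBS lesions were below it. With IL-33 and added PBS, 12 members were higher at an unadjusted p under 0.05 over the same PBS lesions (4.05% of all genes were), and the median was 1.20.

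The cytokines themselves were close to the limit of detection. Il13 had 9 counts over the 4 IL-33 lesions and 2 over the PBS lesions, a ratio of 6.56 with an exact 95% Poisson interval of 1.36 to 62.4, and Il5 had 6 counts in each group. With added PBS, Il13 had 22 counts, a ratio of 16.6 over PBS (4.09 to 146). Both intervals cover counting error only. In edgeR's quasi-likelihood test Il13 did not pass over PBS, with an adjusted p of 0.620 for IL-33 and 0.141 for IL-33 and added PBS. Cre controls with IL-33 had 397 counts of Il13 and 190 of Il5. The deficient lesions were lower than Cre controls by log2 fold changes of -5.44 for Il13 and -4.92 for Il5, with adjusted p of 2.84e-06 and 4.33e-06 in edgeR's quasi-likelihood test. Il4, Il9 and Il25 were not analysed here.

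The macrophage products, and Chil4 beside them, differed in how far the groups were apart. Chil3, the chitinase-like protein Ym1, was at 79.3, 37.3, 11.6 and 49.8 CPM in IL-33 lesions, against 1.31, 4.45, 56.3 and 5.23 CPM in PBS lesions. The groups overlapped through PBS replicate 3 alone, and the log2 fold change of 1.40 ± 0.91 (SE) had an adjusted p of 0.874 in edgeR's test. Its close relative Chil4, with which reads may be shared, was at 21.3, 5.73, 3.36 and 42.4 CPM in IL-33 lesions, against 0, 0.0452, 0.154 and 0.0497 CPM in PBS lesions. That separation was not seen in the second IL-33 set, where Chil4 was at 0.0890, 0.0289, 1.11 and 0.253 CPM. Among IL-33 lesions Chil4 ranked as the summed endometrial epithelium genes did, which were at 920, 618, 426 and 3016 CPM. In the second IL-33 set that sum was 32.3 to 175 CPM, and the part of epithelial content in Chil4 was not tested. The adjusted p was 0.528 for Chil4 in IL-33 against PBS, and the difference between the IL-33 sets had an adjusted p of 0.145. Arg1, which encodes arginase 1, was at 140, 202, 69.2 and 212 CPM in IL-33 lesions and at 21.9, 14.6, 158.1 and 52.1 CPM in PBS lesions, overlapping through the same PBS lesion. Mrc1, the macrophage mannose receptor, averaged 286 ± 74.1 CPM with IL-33 and 274 ± 114 CPM with PBS (SD, n = 4 each). The lectin Mgl2 averaged 14.8 ± 6.53 CPM with IL-33 and 4.45 ± 1.46 CPM with PBS, with 1 IL-33 lesion inside the PBS range and an adjusted p of 0.620 in edgeR's test.

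Chemokines of the type 2 response were apart by less. Ccl11 (eotaxin-1), which attracts eosinophils, was at 11.6, 10.9, 20.1 and 13.3 CPM in IL-33 lesions, against 8.24, 6.64, 6.52 and 7.00 CPM in PBS lesions. The groups did not overlap, and the log2 fold change was 0.98 ± 0.34 (SE) with an adjusted p of 0.620 in edgeR's test. Ccl24 (eotaxin-2) averaged 3.70 ± 0.798 CPM with IL-33 and 2.27 ± 0.222 CPM with PBS (SD, n = 4 each), also without overlap, with an adjusted p of 0.883. Ccl8 averaged 52.9 ± 15.7 CPM with IL-33 and 27.1 ± 17.9 CPM with PBS, with overlap. Ccl17, a chemokine for T helper 2 cells, averaged 0.225 ± 0.184 CPM with IL-33 and 0.366 ± 0.122 CPM with PBS. Fcer2a, the low-affinity IgE receptor of B cells, lay below PBS in every IL-33 lesion, at a mean of 0.467 CPM with IL-33 and 1.58 CPM with PBS (log2 fold change -1.76 ± 0.59, adjusted p = 0.620 in edgeR's test), while with added PBS it averaged 1.84 CPM. Among 13 genes of IL-4 and IL-13 reception, the decoy receptor Il13ra2 had a log2 fold change of 1.29 and the STAT target Cish one of 0.75, with adjusted p of 0.634 for both.

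**Figure D3:**
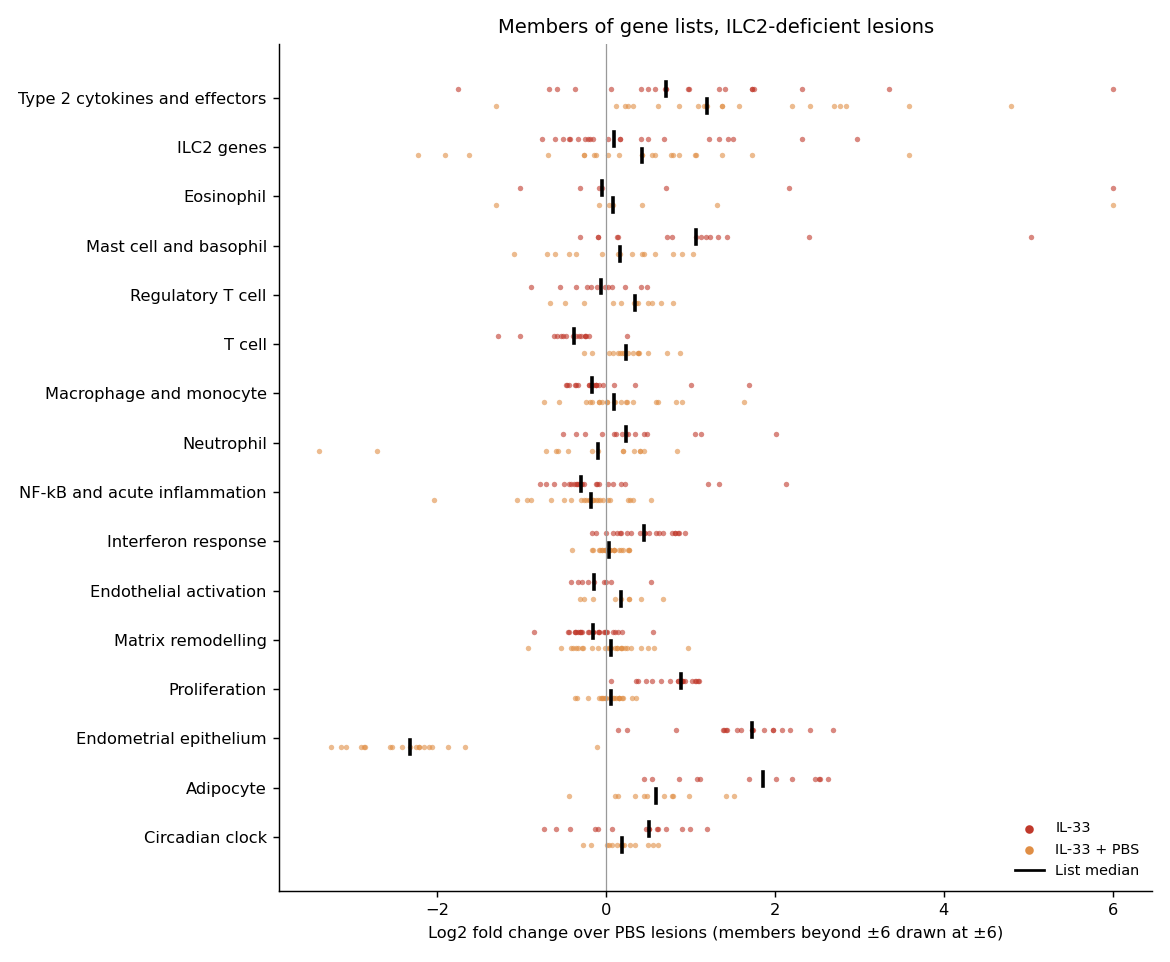
Each point is a gene of 1 of 16 lists and the horizontal axis is its log2 fold change over the same 4 PBS lesions, for IL-33 lesions (upper row of each pair) and for lesions with IL-33 and added PBS (lower row); black bars are list medians. The type 2 list lies to the right in both rows, with medians of 0.71 and 1.20, and the endometrial epithelium list lies on opposite sides, with medians of 1.73 and -2.32.

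Genes of the IL-33 receptor pathway had a median near that of all genes. None of its 16 measured genes passed, 1 was higher (5.31% of all genes were) and 1 lower (1.44%) at an unadjusted p under 0.05, and the median log2 fold change was -0.03. Il1rl1, the receptor ST2, was at 14.5, 7.93, 8.94 and 7.67 CPM in IL-33 lesions, against 4.79, 3.68, 12.0 and 6.49 CPM in PBS lesions, overlapping through PBS replicate 3, with a log2 fold change of 0.54 ± 0.42 (SE) and an adjusted p of 0.926. In Cre controls with IL-33 it averaged 56.6 ± 41.2 CPM, and the deficient lesions were lower by a log2 fold change of -2.53 (adjusted p = 0.00117 in edgeR's test). Il33 averaged 40.3 ± 11.1 CPM with IL-33 and 53.96 ± 33.7 CPM with PBS (SD, n = 4 each), and the accessory receptor chain Il1rap 24.9 ± 8.41 CPM with IL-33 and 21.0 ± 6.37 CPM with PBS. The 2 members under an unadjusted p of 0.05 were the inhibitory receptor Sigirr, with a log2 fold change of 0.66, and the inhibitory kinase Irak3, with one of -0.58 (adjusted p = 0.724 and 0.638 in edgeR's test).

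Markers of the targeted cells were low in both arms. Of 22 measured ILC2 genes none passed, with a median log2 fold change of 0.09. At an unadjusted p under 0.05 in edgeR's test, 3 were higher (5.31% of all genes were) and 1 was lower (1.44%). Of the 22, 3 lay above PBS in every IL-33 lesion (2.04% of all genes did). With IL-33 and added PBS, 5 were higher at that p (4.05% of all genes were) and 1 was lower (3.99%), with a median of 0.43. Gata3, a transcription factor that ILC2s share with T helper 2 cells, was at 2.20 ± 0.467 CPM with IL-33 and 1.97 ± 0.474 CPM with PBS (SD, n = 4 each), while Cre controls with IL-33 averaged 7.77 ± 1.22 CPM. Nmur1 had 30 counts in IL-33 lesions, 0 of them in replicate 3, and 5 counts in PBS lesions, and 155 counts in Cre controls with IL-33. Its log2 fold change of 2.97 ± 1.13 for IL-33 over PBS had an adjusted p of 0.620 in edgeR's test. Id2, which is expressed by many cell types, averaged 48.1 ± 8.51 CPM with IL-33 and 56.0 ± 18.2 CPM with PBS and so does not report on its deletion in Nmur1-expressing cells. Tph1, which makes serotonin's precursor in mast cells and activated ILC2s, was at 2.79, 2.02, 2.00 and 2.19 CPM in IL-33 lesions, against 0.458, 0.519, 1.98 and 0.348 CPM in PBS lesions. The IL-33 lesions were all above, though PBS replicate 3 nearly reached the lowest of them, and the adjusted p was 0.620.

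Among the other cells that carry ST2, mast cells and basophils had genes that leaned to the higher side. Among 15 measured mast cell and basophil genes none passed, 8 were higher (5.31% of all genes were) and none lower (1.44%) at an unadjusted p under 0.05, and the median log2 fold change was 1.06. Cpa3, a mast cell carboxypeptidase, was at 14.8, 12.2, 7.63 and 9.36 CPM in IL-33 lesions, against 5.77, 3.07, 7.75 and 4.49 CPM in PBS lesions, and the chymase gene Cma1 at 20.3, 14.8, 9.42 and 10.4 CPM with IL-33 against 4.62, 4.63, 10.3 and 5.61 CPM with PBS. For both genes IL-33 replicate 3 and PBS replicate 3 overlapped and the other lesions were apart. Mcpt4, another chymase, and Ms4a2, the beta chain of the high-affinity IgE receptor, lay above PBS in every IL-33 lesion, with log2 fold changes of 1.22 and 1.32 (adjusted p = 0.626 and 0.634 in edgeR's test). Mcpt2, the list member with the lowest p, had 66, 9, 0 and 61 counts in IL-33 replicates 1 to 4. It had 5 counts in the PBS group and 2 with added PBS. Its log2 fold change of 5.03 ± 1.25 (SE) for IL-33 over PBS had an adjusted p of 0.528 in edgeR's test. The basophil receptor Cd200r3 followed a single lesion and was at 11.6 CPM in IL-33 replicate 4, against 0.614 to 2.81 CPM in the other IL-33 lesions and 0.616 to 1.04 CPM in PBS lesions. The summed level of the list was 168, 139, 95.1 and 171 CPM with IL-33, against 118, 125.6, 133.5 and 124 CPM with PBS, so the list as a whole overlapped. With added PBS no member was higher (4.05% of all genes were) or lower (3.99%) at an unadjusted p under 0.05, and the median was 0.17.

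Eosinophil genes other than Rnase2a lay on both sides of 0. Of 7 measured members Rnase2a alone passed, and the median was -0.05. Siglecf, a surface lectin of eosinophils and some macrophages, averaged 2.72 ± 0.771 CPM with IL-33 and 2.82 ± 0.564 CPM with PBS (SD, n = 4 each). Prg2, the major basic protein, had 15 counts with IL-33 and 41 with PBS. The receptor gene Il5ra had a log2 fold change of 2.16 ± 0.91 with an adjusted p of 0.645 in edgeR's test, with overlap. Epx, Prg3 and the genes Ear1, Ear6 and Ear10 were not analysed here, so the list lacks several of the genes that define the cell.

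Regulatory T cells and endothelium, which also bear ST2, had no gene under an unadjusted p of 0.05 in edgeR's test. This held for all 12 regulatory T cell genes, and Foxp3, their lineage factor, was at 2.39, 0.888, 2.06 and 1.87 CPM with IL-33, against 1.25, 1.20, 3.77 and 1.54 CPM with PBS. Of the 12, 1 (Ikzf4) lay below PBS in every IL-33 lesion (1.86% of all genes did). No gene was under that p among 19 endothelial genes and 9 endothelial activation genes either. Of the 19, 2 lay above PBS in every IL-33 lesion (2.04% of all genes did) and 1 lay below (1.86%). Vcam1, an adhesion molecule of inflamed endothelium, averaged 41.4 ± 9.81 CPM with IL-33 and 41.4 ± 17.4 CPM with PBS (SD, n = 4 each), with a 95% interval of -0.74 to 0.74 for the log2 fold change, and Pecam1 had a log2 fold change of -0.12 with an interval of -0.47 to 0.23. Among 24 NF-kB and acute inflammation genes the median was -0.29. At an unadjusted p under 0.05 in edgeR's test, 2 of the 24 were higher (5.31% of all genes were) and none was lower (1.44%). Lif, with the lowest p of these, had a log2 fold change of 1.33 (adjusted p = 0.620 in edgeR's test). It was at 29.5 CPM in IL-33 replicate 4, against 4.32 to 9.10 CPM in the other IL-33 lesions and 3.45 to 6.37 CPM in PBS lesions. Il6, Il1b, Cxcl1 and Ccl2 had log2 fold changes of -0.79, -0.62, -0.42 and -0.71, all with adjusted p above the threshold (0.925, 0.934, 0.981 and 0.884 in edgeR's test), and PBS replicate 3 was the highest of the 8 lesions for each. Macrophage and monocyte genes had a median of -0.17 over 21 members, T cell genes one of -0.38 over 16, B and plasma cell genes one of -0.32 over 21, and neutrophil genes one of 0.23 over 15. Resident peritoneal macrophage genes had a median of 0.37 over 14. At an unadjusted p under 0.05 in edgeR's test, 2 of these 14 and 1 of the 21 macrophage and monocyte genes were higher (5.31% of all genes were), and none was lower (1.44%). Interferon response genes had a median of 0.45 over 22, with Isg15 at 17.3 CPM in IL-33 replicate 4, against 4.14 to 6.93 CPM in the other IL-33 lesions and 2.66 to 6.39 CPM in PBS lesions. Without PBS replicate 3 the macrophage median was 0.15 and the regulatory T cell median 0.44.

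Cell cycle genes leaned to the higher side in IL-33 lesions. Of 20 proliferation genes none passed, but 16 were higher (5.31% of all genes were) and none lower (1.44%) at an unadjusted p under 0.05, with a median log2 fold change of 0.89. None of them separated the groups. Mki67, a marker of cycling cells, was at 157.6, 191, 125 and 239 CPM in IL-33 lesions, against 144, 99.3, 93.5 and 59.6 CPM in PBS lesions, where PBS replicate 1 lay above IL-33 replicate 3. The mitotic genes Aurka, Plk1 and Ccnb1 had log2 fold changes of 1.06, 1.10 and 1.09, with adjusted p of 0.616, 0.620 and 0.620 in edgeR's test. The median was 0.69 without IL-33 replicate 4, the epithelium-rich lesion, and 0.06 in the lesions with IL-33 and added PBS. The part of epithelial content in this was not tested.

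Epithelial genes of the uterus leaned higher with IL-33 and lower with IL-33 and added PBS. None of 19 endometrial epithelium genes passed in IL-33 against PBS, and the median log2 fold change was 1.73. At an unadjusted p under 0.05 in edgeR's test, 3 were higher (5.31% of all genes were) and none was lower (1.44%). With IL-33 and added PBS over PBS none passed, with a median of -2.32. There 10 of the 19 were lower at that unadjusted p (3.99% of all genes were) and none was higher (4.05%). The summed level of these genes was 920, 618, 426 and 3016 CPM in IL-33 lesions, against 429, 438, 139 and 425 CPM in PBS lesions and 32.3, 35.4, 175 and 57.6 CPM in lesions with IL-33 and added PBS. IL-33 replicate 4 was by far the highest, IL-33 replicate 3 was within the PBS range, and PBS replicate 3 was low. The keratin Krt19 was at 111, 47.4, 32.8 and 398 CPM with IL-33, against 37.6, 36.5, 21.6 and 34.8 CPM with PBS and 4.09, 3.78, 13.7 and 6.49 CPM with IL-33 and added PBS. Aqp5, a water channel of the glands and lumen, lay above PBS in every IL-33 lesion, with a log2 fold change of 2.69 ± 0.93 (SE) and an adjusted p of 0.620 in edgeR's test. Of 14 luminal and secretory genes, 5 were higher at an unadjusted p under 0.05 (5.31% of all genes were), with a median of 2.71. With added PBS, 2 of these 14 were lower at that p (3.99% of all genes were) and none was higher (4.05%), with a median of -2.98. Without IL-33 replicate 4 the 2 list medians for IL-33 over PBS were 0.79 and 1.18. For 14 uterine estrogen response genes the median was 0.87, and 3 were higher at that p (5.31% of all genes were) and none lower (1.44%). With added PBS their median was -0.89, and 6 were lower (3.99% of all genes were) and none higher (4.05%). Greb1, an estrogen receptor target, averaged 87.7 ± 43.0 CPM with IL-33 and 52.3 ± 27.7 CPM with PBS (SD, n = 4 each).

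**Figure D4:**
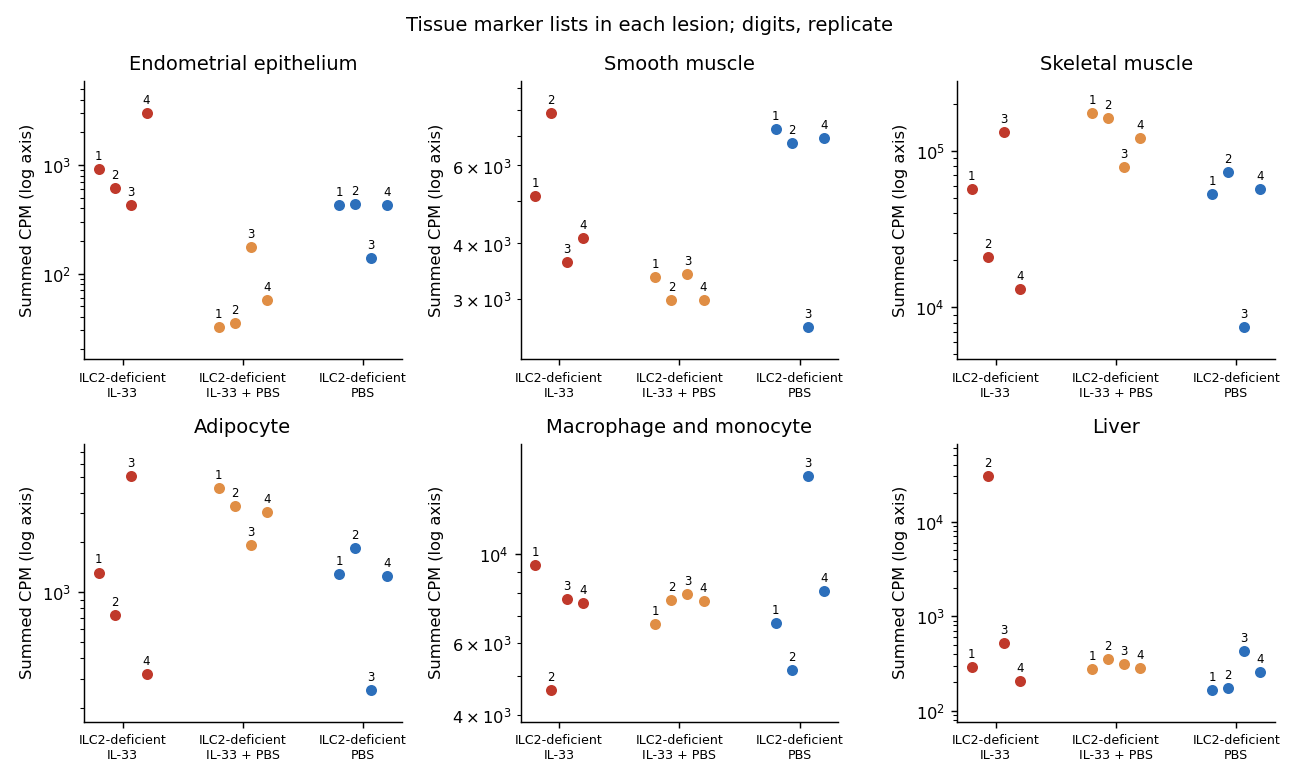
Summed CPM of 6 tissue lists on log axes in each lesion without ILC2s, by treatment (n = 4 each), with the replicate number above each point. IL-33 replicate 4 is the highest for epithelium, IL-33 replicate 3 for fat and, among IL-33 and PBS lesions, for skeletal muscle, IL-33 replicate 2 for liver, and PBS replicate 3 for macrophages.

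Further lists followed single lesions. Liver genes had a median log2 fold change of 12.61 over 15 members, and Alb, the albumin gene, was at 14970 CPM in IL-33 replicate 2, against 0.0221 to 0.881 CPM in the other IL-33 lesions and 0.0331 to 0.226 CPM in PBS lesions. Without IL-33 replicate 2 the liver median was 1.36. Adipocyte genes had a median of 1.86 over 12 members, with Adipoq at 83.5 CPM in IL-33 replicate 3, against 0.239 to 4.29 CPM in the other IL-33 lesions and 1.46 to 9.30 CPM in PBS lesions. Without that lesion the adipocyte median was -0.44. Skeletal muscle genes took 5.99%, 2.26%, 12.4% and 1.45% of counts in IL-33 lesions, against 5.90%, 7.88%, 0.822% and 6.12% in PBS lesions and 8.31% to 14.8% with added PBS.

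Genes of the circadian clock leaned in opposite directions. Of 15 measured clock genes none passed, 4 were higher (5.31% of all genes were) and 3 lower (1.44%) at an unadjusted p under 0.05, and 3 lay below PBS in every IL-33 lesion (1.86% of all genes did). Arntl, the clock activator BMAL1, was at 24.2, 28.9, 27.2 and 31.8 CPM in IL-33 lesions, against 39.6, 42.7, 41.1 and 46.3 CPM in PBS lesions. The groups were narrow and did not overlap, and the log2 fold change of -0.60 ± 0.15 (SE) had an adjusted p of 0.528 in edgeR's test. Npas2, a partner of BMAL1, and Cry1, a repressor, also lay below, with log2 fold changes of -0.73 and -0.42. Dbp, an output gene of the clock, was at 31.9, 24.3, 39.8 and 14.9 CPM with IL-33, against 12.8, 18.3, 5.99 and 11.4 CPM with PBS, and Ciart, Per3 and Nr1d2 had log2 fold changes of 0.99, 0.71 and 0.61. In lesions with IL-33 and added PBS, Arntl was at 56.2, 61.1, 44.02 and 54.6 CPM, and in Cre controls with IL-33, whose library names interleave with those of the IL-33 lesions, at 24.2, 25.2, 30.6 and 25.8 CPM. Arntl was 1 of 3 genes (0.0141%) that passed between the 2 IL-33 sets without ILC2s, lower without added PBS by a log2 fold change of -0.95 (adjusted p = 0.00902 in edgeR's test), in a comparison whose count ran between 0 and 423 genes when single lesions were left out. The time of day of collection is not in the labels, and its part was not tested.

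**Figure D5:**
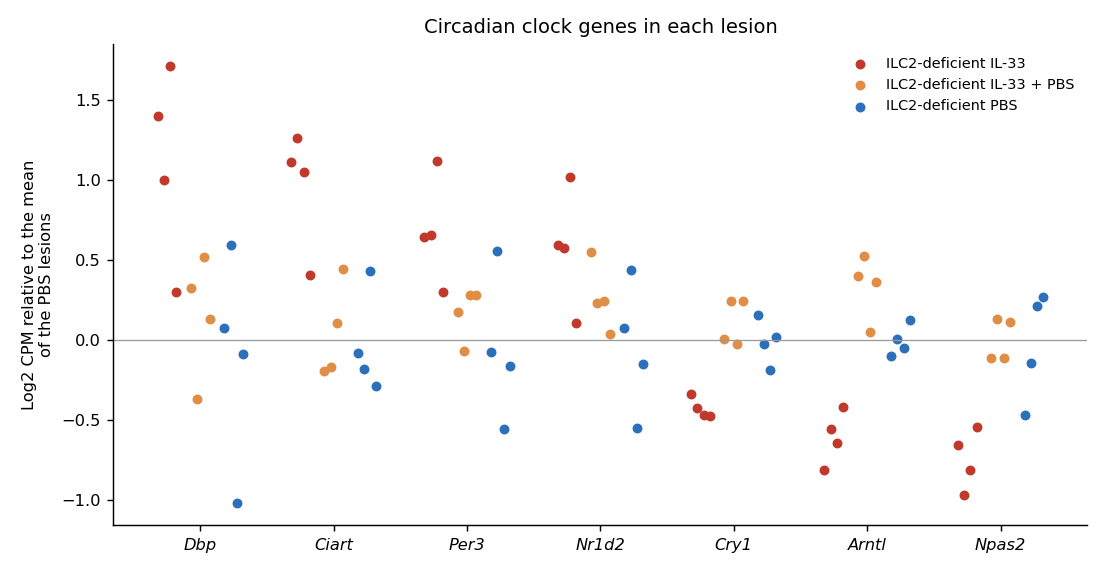
Log2 CPM of 7 clock genes in each lesion relative to the mean of the PBS lesions (n = 4 per group). With IL-33, Cry1, Arntl and Npas2 lie below the PBS lesions and Dbp, Ciart, Per3 and Nr1d2 mostly above, while the lesions with IL-33 and added PBS scatter around 0 or above it.

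Other genes near the top of the ranking had no list in common. Ffar4, a receptor for long-chain fatty acids, was at 2.50, 1.93, 1.95 and 4.82 CPM in IL-33 lesions, against 1.08, 1.35, 1.16 and 1.18 CPM in PBS lesions, without overlap. Its log2 fold change of 1.23 ± 0.25 (SE) had an adjusted p of 0.108 in edgeR's test, and with added PBS it was at 0.801, 0.953, 1.24 and 0.884 CPM. It was another of the 3 genes that passed between the IL-33 sets, higher without added PBS by a log2 fold change of 1.53 (adjusted p = 0.00902), and the third was Isyna1, an enzyme of inositol synthesis, with a log2 fold change of 1.09 (adjusted p = 0.0237). Car4, a membrane-bound carbonic anhydrase, was at 2.72, 2.73, 31.1 and 0.847 CPM with IL-33, against 0.229, 1.20, 0.173 and 0.364 CPM with PBS, overlapping at its edge, with an adjusted p of 0.248. Mrgprg, a Mas-related receptor, had 56 counts with IL-33, 1 of them in replicate 4, and none with PBS. Set against a floor of 3 counts over the PBS group, the ratio was 27.2. With added PBS it had 150 counts, a ratio of 75.6 against the same floor. These ratios carry no interval and are not lower bounds. The adjusted p was 0.540 with IL-33 and 0.201 with IL-33 and added PBS in edgeR's test. Smpd3, a neutral sphingomyelinase, averaged 20.2 ± 15.6 CPM with IL-33 and 5.92 ± 2.70 CPM with PBS, without overlap, with an adjusted p of 0.535. On the lower side the smallest unadjusted p belonged to Zfp11, a zinc finger gene, at 4.01, 5.18, 5.31 and 5.19 CPM in IL-33 lesions against 6.88, 7.36, 5.70 and 6.67 CPM in PBS lesions, with a log2 fold change of -0.43 and an adjusted p of 0.528. Gm37465, Arntl, Stkld1, Npas2 and the non-coding RNA Cerox1 followed, with log2 fold changes of -0.74, -0.60, -1.07, -0.73 and -0.80 and adjusted p of 0.528 each in edgeR's test.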

How the data were processed

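Raw counts per gene of 21249 genes in 41 libraries were used as deposited by the authors. GRCm38 is the build and HTSeq, STAR, Trimmomatic, limma and edgeR are the tools named, without version, per the submitters' processing notes. For annotation and strand setting nothing is given in the sources used here. No gene had fewer than 411 counts in all, so rarer genes may be missing from every test.

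All 41 libraries entered 1 edgeR 4.0.16 model of 11 group means in R 4.3.3 (TMM scaling, robust quasi-likelihood F-test, two-sided), with Benjamini-Hochberg adjustment over all genes at 0.05. The filter on low counts removed 0 genes. CPM were computed on effective library sizes. SE is the absolute log2 fold change over the square root of F. Counting intervals are exact Poisson intervals. The biological coefficient of variation was 0.465. The procedure was tested on simulated data. Alternatives were DESeq2 1.42.0, other scalings and filters, a fit of 8 libraries, a skeletal muscle covariate, a replicate block, pooled IL-33 groups and leaving out libraries.

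Gene lists (40, with 572 measured genes) and the comparison itself were chosen with earlier results of these data known. Genes named were a panel, the 12 largest called changes in each direction, up to 3 list members with the lowest p, and the 6 lowest p in each direction. Genes beyond these, such as most mast cell, clock, keratin and cell cycle genes, were chosen after their values were seen. Symbols were placed with GENCODE M21. Replicate libraries within the 3 deficient groups differed by far more than sampling noise, with 19.7 to 427 for the chi-square over its degrees of freedom, so none was merged.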

Additional observations from a re-analysis of the deposited data

Results flagged for a closer look

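Single lesions that stood far from the other 3 of their group were sought among 287 sets of 4 values, and 32 were found. Chance alone gives about 1 in 20 if values are normally distributed, which CPM need not be. A set in which every value but 1 is 0 is always flagged. Genes of the same tissue are not independent of each other, and many genes were chosen after their values were seen. In IL-33 replicate 2 these were Alb at 14970 CPM and the liver list at 30450 CPM. In IL-33 replicate 3 they were Adipoq at 83.5 CPM, Cidec at 81.1 CPM, both adipocyte genes, and Car4 at 31.1 CPM. IL-33 replicate 4 had the luminal and secretory list at 7589 CPM, Aqp5 at 33.8 CPM, Sprr2d at 89.0 CPM and Smpd3 at 43.7 CPM, and in IL-33 replicate 1 Zfp11 was low at 4.01 CPM. For Sprr2d the reads may be shared with relatives.

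PBS replicate 3 had Chil3 at 56.3 CPM, Foxp3 at 3.77 CPM, Id2 at 83.1 CPM, Tph1 at 1.98 CPM and the only Rnase2a counts of its group at 0.0577 CPM, and low values of Cish at 9.28 CPM, the endometrial epithelium list at 139 CPM and the smooth muscle list at 2591 CPM. In the other PBS lesions, Col6a3 was high at 3413 CPM in replicate 1, Alb high at 0.226 CPM and Tpsab1 low at 0.339 CPM in replicate 2, and Ccl24 low at 1.94 CPM in replicate 4.

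Among the lesions with IL-33 and added PBS, replicate 1 had Alb at 2.31 CPM and Gata3 at 1.99 CPM. Replicate 2 had Foxp3 at 4.07 CPM and low proliferation genes, with Mki67 at 64.8 CPM, Plk1 at 3.38 CPM and the list at 257 CPM. Replicate 3 had Car4 at 11.4 CPM, Sprr2d at 0.440 CPM, the eosinophil list at 38.5 CPM and the luminal and secretory list at 319 CPM.

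The effect of IL-33 over the shared PBS lesions differed between the 2 IL-33 sets without ILC2s for 3 genes by the test of the sets against each other in edgeR. The log2 fold change without over with added PBS was -0.95 for Arntl, 1.53 for Ffar4 and 1.09 for Isyna1.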

How the results depend on the processing

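The count of genes changed by IL-33 against PBS was 2 under RLE and upper-quartile scaling, with no filter and with a filter of 1 CPM in 4 libraries. It was 18 with DESeq2, 4 with both IL-33 groups pooled against PBS, and 0 in the fit of the 8 libraries only, without libraries over 1% liver transcripts, with a skeletal muscle covariate and with 3 libraries left out together (IL-33 replicates 2 and 4 and PBS replicate 3, added after seeing the data). The count over the gene lists was 9 with DESeq2 and 0 in those same 4 fits. Leaving out 1 lesion at a time gave 0 to 4 genes over all and 0 to 2 over the lists. A replicate block in the fit of the 8 libraries gave 0 genes and 0 list members. The labels do not say that replicate numbers pair the lesions. Same-numbered lesions had correlations of deviations between -0.173 and 0.0156, and not every lesion correlated best with its own number. Tissue content of single lesions enters these correlations over all genes, so they cannot exclude a pairing.

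The 18 genes of DESeq2 held Col6a5, Rnase2a, Ear2, Retnla, Chil4, Car4, Ffar4, Mrgprg, Gm49087, Dbp and Ciart on the higher side and Zfp11 on the lower. The rest, all higher, were A1bg, Tdo2, Hsd11b1, Alpl, Mcpt2 and Cd200r3, with log2 fold changes of 25.77, 5.07, 3.07, 3.42, 5.22 and 2.40. Hsd11b1 was highest in IL-33 replicate 2, the liver-rich lesion, and Cd200r3 in IL-33 replicate 4. The part of tissue content in these calls was not tested. With IL-33 and added PBS against PBS the count was 5, but 21 with DESeq2 and 4 to 5 without single lesions. Between the 2 IL-33 sets it was 3, but 14 with the filter of 1 CPM, 768 with DESeq2, 163 without liver-rich libraries, 0 with the 3 libraries left out and 0 to 423 without single lesions. For deficient lesions against Cre controls it was 813, but 1480, 331 and 78 under DESeq2, without liver-rich libraries and with the 3 left out, and 202 to 760 without single lesions.

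Gene by gene, 6 log2 fold changes with an unadjusted p under 0.05 turned sign. Adipoq was -0.13 with the replicate block and -0.94 without IL-33 replicate 3, and Cidec was -0.43 without IL-33 replicate 3, with highest values of 3.39 and 3.44 without PBS replicate 2. With both IL-33 groups pooled, Isyna1 was -0.000287, Krt19 -0.019 and Krt7 -0.12. Of the other values, 17 came to pass the threshold and 15 lost it. Another 14, of genes with an unadjusted p not under 0.05 in edgeR's test, turned sign with a shift of at least 1 SE. The remaining 2021 kept their side of the threshold, and any of them that turned sign shifted by less than 1 SE. The cause of these changes was not tested. The fit without IL-33 replicate 3 left out the lesion that held most counts of Adipoq and Cidec, whereas the replicate block left out no lesion. Counts of 10 or fewer per group, as for Il5 and Il13, limit any statement on the cytokines.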
